A study of Mus musculus with 12 samples.

Results

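The genes described are 34 enzymes and transporters of glycolysis, lactate handling, gluconeogenesis and fructose use, taken by name from a table of 54532 genes that was counted in the whole kidneys of 12 mice. All 34 were found, and all 34 were among the 24642 genes tested. The mice were 18 days old and of the C57BL/6 strain, in 4 groups of 3. The noncystic groups were Pkd1 RC/F mice with Pkd2 +/+ or with Pkd2 Δ17/Δ17, and the cystic groups were Ksp-Cre; Pkd1 RC/F mice (called Pkd1 RC/- after recombination) with the same pair of Pkd2 genotypes. RC is a hypomorphic Pkd1 allele that all 4 groups carried, F is the floxed allele, and Δ17 is a CRISPR deletion of the miR-17 binding motif from the Pkd2 3′-UTR (UTR_DD in the sample titles). Ksp-Cre is active in kidney tubule epithelium, and the noncystic mice lacked it, so that presence of the Cre and loss of the floxed allele cannot be told apart. The labels gave no sex.

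Glycolysis turns glucose into pyruvate in the cytosol, and pyruvate either enters the mitochondria or is reduced to lactate and exported. Gluconeogenesis runs the route backwards past the irreversible steps with its own enzymes, and in the kidney it belongs mainly to the proximal tubule, which makes glucose from lactate, glutamine and glycerol. The proximal tubule also takes up fructose and phosphorylates it, whereas distal segments burn more glucose through glycolysis. Many steps are served by isoenzymes, encoded by separate genes that differ between tissues and nephron segments, so a kidney can keep a step while changing the gene that supplies it.

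Total counts per mouse ran from 18800307 to 24453033, and members took 1.49% to 1.78% of all counts in noncystic kidneys and 1.09% to 1.22% in cystic kidneys. Pkd2 stood at 194 to 219 CPM in noncystic Pkd2 +/+, 270.5 to 286 in noncystic Pkd2 Δ17/Δ17, 213 to 233 in cystic Pkd2 +/+ and 307 to 337 in cystic Pkd2 Δ17/Δ17 kidneys, where CPM is the count relative to the library size after correction for composition. These reads do not test for the deleted motif itself. Xist, which is high in females, stood at 431 to 811 CPM in mice 19, 22, 23, 25, 26 and 28. It stood at 5.47 to 7.74 CPM in mice 20, 21, 24, 27, 29 and 30, so no 2 compared groups were matched for it. The summed CPM of 9 proximal tubule markers ran from 7702 to 10062 in the noncystic and from 2754 to 5075 in the cystic kidneys, and Slc34a1, a phosphate transporter that defines the segment, stood at 1263 CPM or more in each mouse. Adrenal markers summed to 343.9 CPM in 1 cystic Pkd2 Δ17/Δ17 mouse (mouse 30) and 47.1 in 1 cystic Pkd2 +/+ mouse (mouse 27), against 3.74 to 7.15 in the other 10. Mouse 26, a cystic Pkd2 +/+ mouse, stood apart from its group for several members, among them Hk3, Slc16a3, Aldoc, Pkm and Ldha.

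To let the levels of different genes be compared, CPM was divided by the length of the merged exons. Per kilobase, Pck1 was the highest member in noncystic Pkd2 +/+ kidneys (1263 CPM per kb), followed by Ldhb (964), Fbp1 (634), Gapdh (475), Aldoa (400.0), G6pc (331) and Khk (327). In cystic Pkd2 +/+ kidneys the order was led by Ldhb (696 CPM per kb), Gapdh (430.4) and Aldoa (358), with Pck1 at 244 and G6pc at 79.3. The lowest members were Hk3 (0.199 CPM per kb in noncystic Pkd2 +/+), Pfkfb1 (0.714) and Eno2 (1.04). No member had an average log2 CPM under 0. Hk3 was nearest, with 10 to 117 reads per mouse.

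Cystic kidneys were compared with noncystic kidneys first, with Pkd2 +/+ in both. Of the 6 genes of gluconeogenesis 5 fell, and the glycolytic genes went in both directions. Among all 34, 13 members fell, 6 rose and 15 did not pass the test (edgeR's quasi-likelihood test, adjusted p under 0.05). Of all genes tested, 31.1% were called in this comparison, 16.9% higher and 14.2% lower. Of the 34 members, 21 had no overlap between the 3 cystic and the 3 noncystic mice, against 41.7% of all genes. The median log2 fold change of the members was -0.16 and that of all genes tested 0.02. Scaling by library totals moved the median of all genes by 0.16 on the log2 scale and the split of calls to 25.4% higher and 10.02% lower. The members' counts were then 8 higher and 12 lower, with Ldha and Pck2 added to the higher calls and Pgk1 no longer called.

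**Figure D1:**
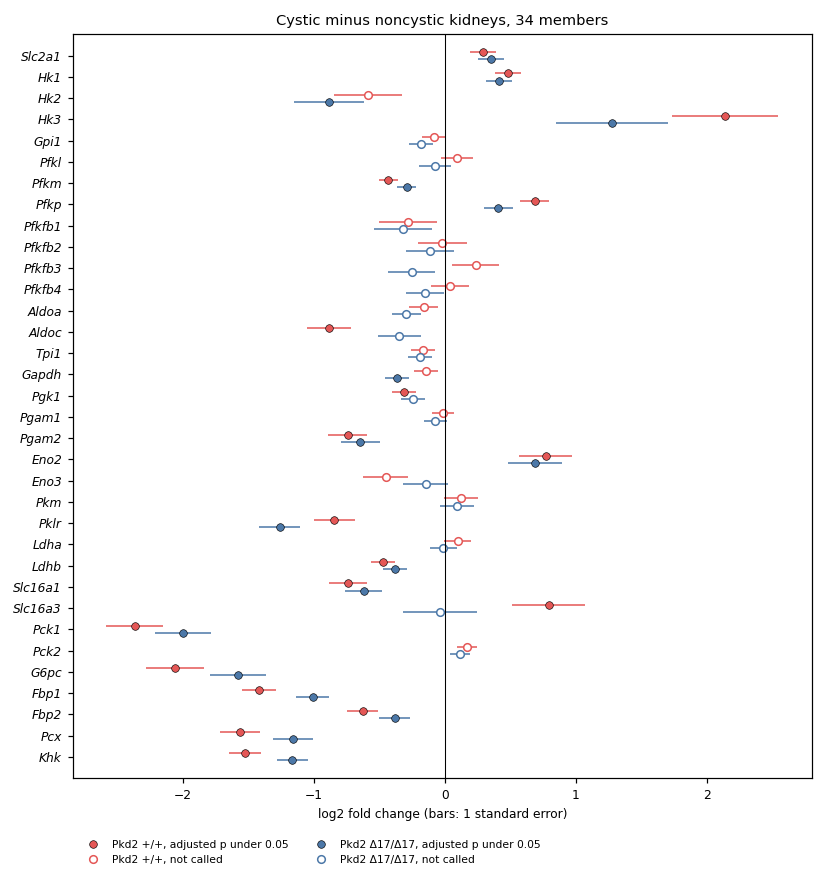
Log2 fold change of each of the 34 members (rows, ordered by role) between cystic and noncystic kidneys, for Pkd2 +/+ mice (red) and Pkd2 Δ17/Δ17 mice (blue). Bars are 1 standard error, filled points passed an adjusted p of 0.05, and 3 mice stand in each group. The gluconeogenic genes and Khk at the bottom lie far to the left, apart from Pck2 and Fbp2, and Hk3 lies farthest to the right.

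Of the 6 gluconeogenic members, 5 fell, with a median log2 fold change of -1.49 over the 6, and Pck2 was not called. Pck1, the cytosolic phosphoenolpyruvate carboxykinase that commits oxaloacetate to glucose synthesis, measured 3679.7, 4028 and 5286 CPM in the 3 noncystic mice and 1028, 509 and 978 CPM in the 3 cystic mice. The lowest noncystic value was more than 3 times the highest cystic value. The fitted log2 fold change was -2.37 (SE 0.22, edgeR adjusted p = 4.8e-07), a 5.17-fold lower level. In bulk kidney RNA, fewer proximal tubule cells and less of the transcript in each cell cannot be told apart.

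G6pc, the catalytic subunit of glucose-6-phosphatase, which releases free glucose as the last step, measured 758, 863 and 774 CPM in noncystic and 242, 113 and 219 CPM in cystic kidneys. It fell 4.17-fold (log2 -2.06, SE 0.22, edgeR adjusted p = 2.2e-06), and the groups did not overlap. Pcx, mitochondrial pyruvate carboxylase, which makes the oxaloacetate used by Pck1, stood at 735, 790.0 and 1085 CPM against 324, 257 and 301 CPM. This was a 2.96-fold fall (log2 -1.56, SE 0.15, adjusted p = 9.3e-07).

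Fbp1, the liver and kidney fructose-1,6-bisphosphatase that opposes phosphofructokinase, measured 958, 1157 and 1122 CPM in noncystic and 436, 369.8 and 404 CPM in cystic kidneys, and fell 2.68-fold (log2 -1.42, SE 0.13, edgeR adjusted p = 4.6e-07). Fbp2, the isoenzyme best known from muscle, was present at 22.5, 23.04 and 21.2 CPM and fell less, to 15.02, 13.7 and 14.5 CPM (log2 -0.63, SE 0.12, edgeR adjusted p = 0.00053). Markers of skeletal muscle were near 0 in all 12 kidneys, with a summed level of 6.17 to 11.3 CPM over 9 genes. Of these, 6 were tested and none was called by edgeR, nor was any at an unadjusted p under 0.05.

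Pck2, the mitochondrial phosphoenolpyruvate carboxykinase, was the exception. It measured 47.2, 46.6 and 49.3 CPM in noncystic and 52.7, 51.8 and 56.4 CPM in cystic kidneys. The groups did not overlap, with the cystic mice above, but the difference did not pass the test (log2 0.17, SE 0.08, edgeR adjusted p = 0.12). With library totals it did (log2 0.33, adjusted p = 0.0022). Within each library the log2 ratio of Pck2 to Pck1 counts, which no scaling can move, was -6.28, -6.43 and -6.74 in noncystic and -4.29, -3.30 and -4.12 in cystic kidneys.

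Khk, ketohexokinase, which phosphorylates fructose on entry, fell along with the gluconeogenic genes. It stood at 563, 601 and 599 CPM in noncystic and 244, 173 and 195 CPM in cystic kidneys (log2 -1.52, SE 0.12, edgeR adjusted p = 1.3e-07).

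The proximal tubule markers fell too: 9 of 9 were called lower, with a median log2 fold change of -1.26, and their sum ran from 7702 to 9604 CPM in noncystic and from 2754 to 4086 CPM in cystic Pkd2 +/+ kidneys. Set against the summed counts of these 9 markers within each library, Fbp1 differed between cystic and noncystic kidneys by -0.12 on the log2 scale, Khk by -0.24 and Pcx by -0.25. Pck1 differed by -1.12 and G6pc by -0.83, so these were lower than the marker sum as well, while Fbp2 (0.67) and Pck2 (1.47) were higher. These ratios are a description. The fall of markers was not particular to the proximal tubule. Distal convoluted tubule (4 of 4, median log2 fold change -1.75) and podocyte markers (4 of 4, -1.25) were all called lower. Of 5 thick ascending limb markers, 3 were called lower and 1 higher. Mouse 26 had the lowest proximal tubule marker sum (2754 CPM) and also the lowest Pck1, G6pc, Pcx, Fbp1, Fbp2 and Khk of its group. Without it the log2 fold change of Pck1 was -2.11 and that of G6pc -1.79.

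**Figure D2:**
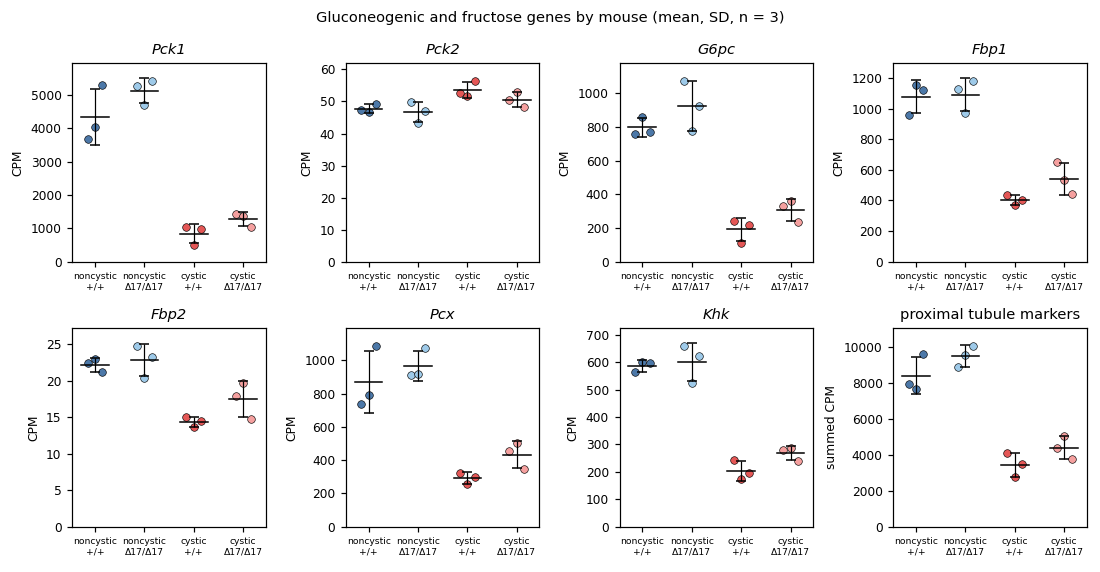
CPM of the 6 gluconeogenic members and Khk in each of the 12 mice (points), with the mean and SD of 3 mice in each group, and in the last panel the summed CPM of 9 proximal tubule markers. In each panel except that of Pck2 the cystic mice lie below all noncystic mice.

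Of the 4 members for glucose uptake and phosphorylation, 3 rose and Hk2 was not called. Fibroblast markers moved with them (5 of 8 called higher and 1 lower, with sums of 2072 to 2279 CPM in noncystic and 3277 to 4980 CPM in cystic kidneys), as did the summed collecting duct markers (1221 to 1367 against 1710 to 3285 CPM, with 2 of 7 called higher and 2 lower). Their part in these rises was not tested. Hk1, the hexokinase of most tissues, which sits on the mitochondrial outer membrane, measured 230.1, 218 and 266 CPM in noncystic and 326, 346 and 327 CPM in cystic kidneys. It rose 1.40-fold (log2 0.48, SE 0.10, edgeR adjusted p = 0.00093), without overlap. Slc2a1, the glucose transporter GLUT1 of the basolateral membrane, stood at 130.0, 148 and 142 CPM against 181, 178 and 155 CPM (log2 0.29, SE 0.10, edgeR adjusted p = 0.032). This call was near the threshold: with DESeq2 size factors its adjusted p was 0.054, and without mouse 19, 20, 21, 25 or 26 it ran from 0.060 to 0.13. Hk2, the insulin-responsive hexokinase, went against its paralog, at 11.99, 27.4 and 16.4 CPM in noncystic and 8.75, 16.6 and 11.9 CPM in cystic kidneys, with groups that overlapped and no call (log2 -0.59, SE 0.26, edgeR adjusted p = 0.10), although it was called lower without mouse 19 (0.023) or 26 (0.025) and with no filter (0.00063).

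Hk3, a hexokinase best known from myeloid white blood cells, had the largest rise among the members. It measured 0.831, 0.855 and 0.509 CPM in noncystic and 1.94, 5.73 and 2.12 CPM in cystic kidneys (log2 2.14, SE 0.40, edgeR adjusted p = 0.00054). The high value belongs to mouse 26. Without it the log2 fold change was 1.47 (adjusted p = 0.0030). Macrophage markers moved with it. Of this list, 7 of 7 were called higher, and their sum went from 143 to 150 CPM in noncystic to 338 to 487 CPM in cystic Pkd2 +/+ kidneys, where mouse 26 was highest. The summed neutrophil markers were low and overlapped between those groups (3.14 to 4.26 against 3.52 to 4.90 CPM), and Ly6g, which defines neutrophils, was at or near 0 in each mouse. The part of these cells in the rise of Hk3 was not tested.

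Among the hexose phosphate steps, the phosphofructokinase genes parted. Pfkp, the platelet-type isoenzyme, rose from 95.8, 107 and 93.8 CPM to 181, 158 and 138 CPM (log2 0.69, SE 0.11, edgeR adjusted p = 0.00012). Pfkm, the muscle-type isoenzyme, fell from 89.0, 98.6 and 101 CPM to 75.5, 69.2 and 69.1 CPM (log2 -0.43, SE 0.07, edgeR adjusted p = 0.00022). Neither pair of groups overlapped. Pfkl, the liver-type isoenzyme, ranged from 189 to 245 CPM in noncystic and from 204 to 272 CPM in cystic kidneys and was not called (log2 0.10, edgeR adjusted p = 0.61). Gpi1, glucose-6-phosphate isomerase, was likewise not called (log2 -0.08, edgeR adjusted p = 0.57).

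The 4 genes of the bifunctional enzymes that make and remove fructose 2,6-bisphosphate, the activator of phosphofructokinase, gave no call by edgeR, and none was at an unadjusted p under 0.05. Pfkfb3, the form with the highest kinase activity, ranged from 69.4 to 99.3 CPM in noncystic and from 78.4 to 106 CPM in cystic kidneys, and it was called higher with no filter on low counts (log2 0.24, edgeR adjusted p = 0.039). The other three ranged from 2.06 CPM (Pfkfb1) to 14.8 CPM (Pfkfb2), each with overlapping groups.

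In lower glycolysis, most of which both directions of the pathway share, 3 of 9 members fell, 1 rose and 5 were not called. Aldoc, the brain-type aldolase, fell from 35.7, 48.4 and 39.9 CPM to 18.97, 29.5 and 18.8 CPM (log2 -0.88, SE 0.17, edgeR adjusted p = 0.00059), and without mouse 26, the highest of the cystic mice, the difference was -1.13. Pgam2, the muscle-type phosphoglycerate mutase, fell from 77.5, 79.3 and 70.0 CPM to 49.2, 39.7 and 46.7 CPM (log2 -0.74, SE 0.15, edgeR adjusted p = 0.00098). Both were without overlap between the groups.

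Pgk1, phosphoglycerate kinase, fell slightly, from 554, 620.2 and 537 CPM to 447, 510.0 and 423 CPM (log2 -0.31, SE 0.09, edgeR adjusted p = 0.014). That call was lost with library totals (log2 -0.15, adjusted p = 0.17) and without mouse 20 or 27. Eno2, the neuronal enolase, rose from 6.02, 4.68 and 3.97 CPM to 10.5, 6.41 and 8.05 CPM (log2 0.77, SE 0.20, edgeR adjusted p = 0.0077). The abundant forms of these steps stayed within small differences: Gapdh (log2 -0.14), Aldoa (-0.16), Tpi1 (-0.17) and Pgam1 (-0.01) had edgeR adjusted p-values of 0.21 to 0.93. Eno3, the muscle enolase, was just outside the threshold (log2 -0.45, SE 0.17, edgeR adjusted p = 0.057). It was called lower by DESeq2 (0.023), with DESeq2 size factors (0.040), with no filter (0.021), with filterByExpr (0.043) and without mouse 21 or 25 (0.026 and 0.010).

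Pyruvate kinase makes pyruvate and ATP. Pklr, the liver and red cell gene, fell from 29.9, 33.7 and 35.9 CPM to 19.01, 17.3 and 19.02 CPM (log2 -0.84, SE 0.16, edgeR adjusted p = 0.00045). Pkm, which supplies nearly all other tissues, ranged from 617 to 846 CPM in noncystic and from 667 to 918 CPM in cystic kidneys (log2 0.12, SE 0.13, edgeR adjusted p = 0.53), and was at -0.037 without mouse 26. Of Pklr's exonic bases, 21.97% are shared with Hcn3, a gene on the opposite strand. The 5 red blood cell markers fell as well (5 of 5 called), with sums of 591 to 969 CPM in noncystic and 251 to 353 CPM in cystic Pkd2 +/+ kidneys, and their part in the fall of Pklr was not tested.

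For lactate, 2 of 4 members fell and 1 rose. Ldhb, the lactate dehydrogenase subunit of oxidative tissues, fell from 1505, 1582 and 1453 CPM to 1167, 1015 and 1095 CPM (log2 -0.47, SE 0.09, edgeR adjusted p = 0.00071). Ldha, the subunit of glycolytic tissues, ranged from 676 to 844 CPM and from 724 to 922 CPM, and was not called (log2 0.10, SE 0.10, edgeR adjusted p = 0.53), although library totals gave a call (log2 0.26, adjusted p = 0.046). Without mouse 26 the difference of Ldha was -0.010. Slc16a1, the monocarboxylate transporter MCT1, fell from 55.2, 78.3 and 53.8 CPM to 36.3, 34.4 and 41.3 CPM (log2 -0.74, SE 0.14, edgeR adjusted p = 0.00065).

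Slc16a3, the lactate exporter MCT4, measured 15.9, 18.6 and 13.9 CPM in noncystic and 22.3, 42.1 and 19.5 CPM in cystic kidneys (log2 0.79, SE 0.28, edgeR adjusted p = 0.038). This call rested on single mice. Without mouse 26 the log2 fold change was 0.38 (edgeR adjusted p = 0.29), without mouse 19, 20 or 21 the adjusted p was 0.052 to 0.14, and DESeq2's test on all mice gave an adjusted p of 0.096.

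**Figure D3:**
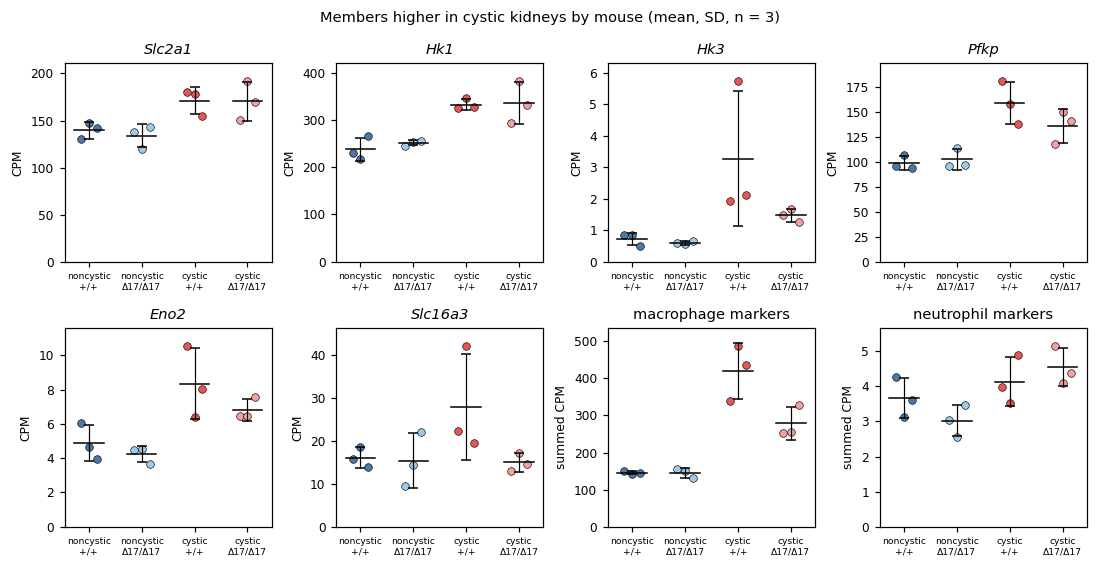
CPM in each of the 12 mice (points) of the 6 members called higher in cystic Pkd2 +/+ kidneys, with the mean and SD of 3 mice in each group, beside the summed CPM of 7 macrophage and 6 neutrophil markers. Mouse 26, the middle point of the cystic Pkd2 +/+ group, is the high point for Hk3, Slc16a3 and the macrophage markers.

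For each step with a pair of isoenzyme genes the log2 ratio of their counts was taken within each library, so that depth and composition cancel. The pairs and which gene stands on top were set with the values known, so the ratios are a description with no test, and no share over other gene pairs was computed. The ratio of Pfkp to Pfkm was 0.11, 0.12 and -0.10 in noncystic and 1.26, 1.20 and 1 in cystic kidneys, so that near-equal counts became about 2 to 1 or more. That of Eno2 to Eno3 was -1.39, -1.51 and -1.50 against -0.20, -0.32 and -0.20. Between noncystic and cystic Pkd2 +/+ kidneys the mean ratio moved by 1.04 for Hk1 over Hk2, 0.97 for Pkm over Pklr, 0.75 for Aldoa over Aldoc, 0.73 for Pgam1 over Pgam2, 0.57 for Ldha over Ldhb and 1.44 for Slc16a3 over Slc16a1. In Pkd2 Δ17/Δ17 mice Aldoa over Aldoc (0.05) and Slc16a3 over Slc16a1 (0.67) overlapped between cystic and noncystic kidneys.

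**Figure D4:**
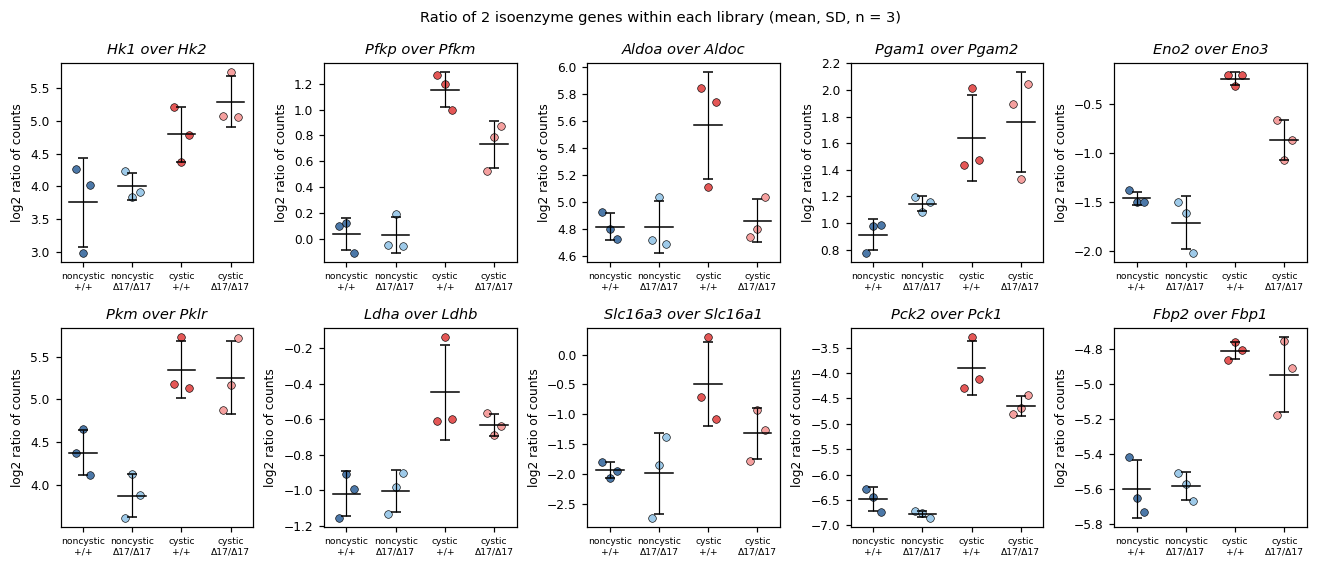
Log2 ratio of the counts of 2 isoenzyme genes within each library for 10 pairs, 1 point a mouse, with the mean and SD of 3 mice in each group. In Pkd2 +/+ kidneys the ratio of Pck2 to Pck1 goes from -6.74 to -6.28 in noncystic to -4.29 to -3.30 in cystic mice.

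The same contrast was made between cystic and noncystic kidneys that both carried Pkd2 Δ17/Δ17, in mice other than those above. Here 13 members fell, 5 rose and 16 were not called, beside 23% of all genes called, 12.8% higher and 10.2% lower. Without overlap between groups were 23 members, against 37.9% of all genes. The median log2 fold change of the members was -0.25. Library totals in edgeR gave 6 higher and 8 lower, while the calls over all genes went from 5679 to 6991 of the 24642 tested.

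The same 5 gluconeogenic genes and Khk fell. Pck1 went from 5259, 4706 and 5408 CPM to 1415, 1374 and 1051 CPM (log2 -2.00, SE 0.21, edgeR adjusted p = 5.8e-06). G6pc went from 1073, 777 and 924 CPM to 332, 359.6 and 236 CPM (log2 -1.58, SE 0.22, edgeR adjusted p = 5.1e-05). The log2 fold changes of Pcx (-1.16), Khk (-1.16), Fbp1 (-1.01) and Fbp2 (-0.38) had edgeR adjusted p-values of 0.026 or less. The call of Fbp2 was lost in a fit of the compared groups alone (0.052) and without mouse 22, 24 or 30 (0.077 to 0.14). Pck2 was again not called (0.12, adjusted p = 0.33).

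Higher again were Hk1 (log2 0.42), Slc2a1 (0.35), Pfkp (0.41), Eno2 (0.69) and Hk3 (1.28), with edgeR adjusted p-values of 0.0045 to 0.042. Of these 5 calls, 4 were lost when single mice were left out: Hk3 without any 1 of the 6, Slc2a1 without mouse 23 or 29 (0.11 and 0.097), Pfkp without mouse 22, 24 or 29 (0.056 to 0.068) and Eno2 without mouse 24 or 30 (0.099 and 0.087). Slc16a3 was not higher here, at 9.43, 14.5 and 22.2 CPM in noncystic and 13.1, 17.3 and 14.6 CPM in cystic kidneys (log2 -0.04, SE 0.28, edgeR adjusted p = 0.95).

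Of the fallers, Pklr fell from 51.4, 38.0 and 46.5 CPM to 22.9, 20.3 and 13.5 CPM (log2 -1.26, SE 0.16, edgeR adjusted p = 2.2e-05). Pgam2 (-0.65), Slc16a1 (-0.62), Ldhb (-0.38) and Pfkm (-0.29) passed the test as well, with adjusted p-values of 0.0040 to 0.0078. Hk2 fell from 13.0, 17.7 and 16.9 CPM to 8.70, 7.14 and 10.005 CPM (log2 -0.88, SE 0.27, edgeR adjusted p = 0.024), and Gapdh, a gene often used as a reference, from 2014, 1933 and 2090.4 CPM to 1486, 1713 and 1492 CPM (log2 -0.36, SE 0.09, edgeR adjusted p = 0.0068). With library totals in edgeR, 5 of the fallers no longer passed: Hk2 (0.052), Gapdh (0.060), Pfkm (0.16), Ldhb (0.0501) and Fbp2 (0.15). Hk2 also lost its call without mouse 23, 24, 28 or 29 (0.058 to 0.098). Aldoc (log2 -0.35, adjusted p = 0.16) and Pgk1 (-0.24, adjusted p = 0.063) did not pass. Pgk1 was called lower by DESeq2 (0.011), with DESeq2 size factors (0.045), with filterByExpr (0.037) and without mouse 23 (0.038). Aldoc was called lower with no filter on low counts (edgeR adjusted p = 0.011).

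Whether the motif deletion changed these genes within cystic kidneys was asked next. No member passed the test by edgeR, while 2.23% of all genes did (1.19% higher, 1.04% lower), and 10 members were at an unadjusted p under 0.05. DESeq2 called 3 members. Of the 34, 7 had no overlap between the 2 cystic groups, against 19% of all genes. The median log2 fold change of the members was -0.02. This comparison shares its Pkd2 +/+ mice with the first one, so their signs are not independent.

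Pcx and Fbp1 had the lowest p-values among the members. Pcx measured 324, 257 and 301 CPM in cystic Pkd2 +/+ and 453, 501 and 346 CPM in cystic Pkd2 Δ17/Δ17 kidneys, without overlap (log2 0.56, SE 0.15, edgeR adjusted p = 0.066). Fbp1 stood at 436, 369.8 and 404 CPM against 650.5, 533 and 443 CPM (log2 0.43, SE 0.13, edgeR adjusted p = 0.10), also without overlap.

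Pck1 stood at 1028, 509 and 978 CPM against 1415, 1374 and 1051 CPM (log2 0.61, SE 0.21, edgeR adjusted p = 0.16), with the lowest Pkd2 Δ17/Δ17 mouse just above the highest Pkd2 +/+ mouse. G6pc (log2 0.69, edgeR adjusted p = 0.11), Khk (0.39, adjusted p = 0.11) and Fbp2 (0.28, adjusted p = 0.28) had overlapping groups. Each Pkd2 Δ17/Δ17 value of these 6 genes lay below all noncystic values.

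The calls of these genes turned with the test and the mice. DESeq2 called Pcx (DESeq2 adjusted p = 0.008), Fbp1 (0.022) and Khk (0.027). Without mouse 25 edgeR called Pcx (0.040), G6pc (0.028), Khk (0.011) and Hk3 (0.039). Without mouse 30, the one with the adrenal markers, it called Pcx (0.017), Fbp1 (0.022) and G6pc (0.045). With no filter on low counts 9 members were called, among them Pck1, G6pc, Fbp1, Pcx, Khk, Hk3, Aldoc and Slc16a3, while the calls over all genes went from 549 to 1639. The calls over all genes also rose with DESeq2 (1090), without mouse 25 (856) and without mouse 30 (761).

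Proximal tubule markers stood higher in the same mice, with 3 of 9 called higher in cystic Pkd2 Δ17/Δ17 kidneys and sums of 3775 to 5075 CPM against 2754 to 4086 CPM. Relative to those summed counts, Fbp1 (0.05) and Khk (0.04) differed little between the cystic groups on the log2 scale, Pcx differed by 0.19, Pck1 by 0.30 and G6pc by 0.38. The part of the marker shift in these differences was not tested.

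Hk3 stood at 1.94, 5.73 and 2.12 CPM in cystic Pkd2 +/+ and 1.49, 1.66 and 1.25 CPM in cystic Pkd2 Δ17/Δ17 kidneys (log2 -1.14, SE 0.37, edgeR adjusted p = 0.14), and Slc16a3 at 22.3, 42.1 and 19.5 CPM against 13.1, 17.3 and 14.6 CPM (log2 -0.90, SE 0.28, edgeR adjusted p = 0.11). Neither pair overlapped. Without mouse 26 the differences were -0.46 (adjusted p = 0.59) and -0.48 (adjusted p = 0.42). Macrophage markers were lower in the same mice, with 4 of 7 called lower and sums of 252 to 329 CPM against 338 to 487 CPM, and their part was not tested.

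Aldoc stood at 18.97, 29.5 and 18.8 CPM against 29.3, 36.2 and 27.9 CPM (log2 0.47, SE 0.17, edgeR adjusted p = 0.18). Mouse 26 was the high one of its group, and without it the difference was 0.72 (adjusted p = 0.021). Pfkm (log2 0.20, adjusted p = 0.21) was higher without overlap and Gapdh (-0.19, adjusted p = 0.37) lower without overlap, neither called. The genes Hk1 (log2 0.01), Slc2a1 (-0.0045), Pklr (0.03), Ldhb (0.0061) and Slc16a1 (0.01), all called between cystic and noncystic kidneys, had standard errors of 0.09 to 0.16 here.

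In noncystic kidneys the deletion gave no call among the members by edgeR or DESeq2, and 0.00406% of all genes, 1 gene, was called by edgeR. One member was at an unadjusted p under 0.05. Pklr stood at 29.9, 33.7 and 35.9 CPM in Pkd2 +/+ and 51.4, 38.0 and 46.5 CPM in Pkd2 Δ17/Δ17 kidneys (log2 0.45, SE 0.15, edgeR adjusted p = 0.77). Pklr and Pgam2 were the 2 members without overlap, Pklr above and Pgam2 below, against 10.8% of all genes. The interaction, which tests whether the deletion differed between cystic and noncystic kidneys, gave no call by edgeR or DESeq2 (0.0122% of all genes by edgeR), and 3 members were at an unadjusted p under 0.05: Aldoc (log2 0.54, adjusted p = 0.57), Fbp1 (0.41, adjusted p = 0.57) and Khk (0.36, adjusted p = 0.59).

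**Figure D5:**
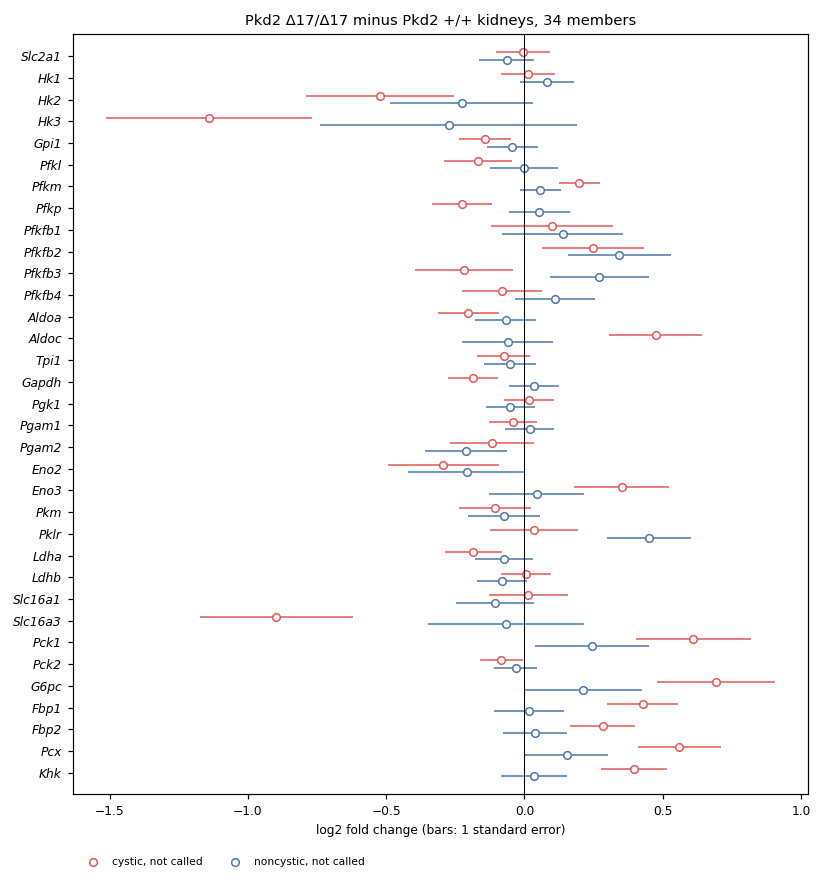
Log2 fold change of each of the 34 members between Pkd2 Δ17/Δ17 and Pkd2 +/+ kidneys, in cystic mice (red) and noncystic mice (blue). Bars are 1 standard error and 3 mice stand in each group. All points are open, since no member passed an adjusted p of 0.05, and in cystic mice the gluconeogenic genes other than Pck2 lie between 0.28 and 0.69.

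The rest of the pathway was read from 60 further genes, of which 58 were tested. Between cystic and noncystic Pkd2 +/+ kidneys 31 fell and 4 rose, beside 14.2% of all genes lower and 16.9% higher. Their median log2 fold change was -0.51. Slc37a4, which carries glucose 6-phosphate to G6pc, fell by 1.60 on the log2 scale (edgeR adjusted p = 9.7e-07).

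Hexose transporters fell in 6 of 8 genes. Slc5a2, the sodium-glucose cotransporter SGLT2 of the early proximal tubule, went from 404, 391 and 611 CPM to 239, 153 and 203 CPM (log2 -1.24, SE 0.20, edgeR adjusted p = 0.00013), and Slc2a2, the transporter GLUT2 that hands glucose to the blood there, from 146, 164 and 164 CPM to 83.5, 64.9 and 87.1 CPM (log2 -1.01, SE 0.16, edgeR adjusted p = 8.4e-05). The insulin-regulated transporter Slc2a4 (log2 -1.56), best known from fat and muscle, fell as well. Fat markers fell with it (4 of 5 called lower and 1 higher, with sums of 253 to 631 CPM in noncystic and 57.7 to 139.6 CPM in cystic kidneys), and their part was not tested. Fructose and polyol genes fell in 3 of 3, among them Akr1b3, aldose reductase, by 1.59 with an SE of 0.55 and overlapping groups.

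A list around the entry of pyruvate into mitochondria, which holds carriers, subunits of pyruvate dehydrogenase and both the kinases that inhibit it and the phosphatases that restore it, fell in 12 of 14 genes. Slc16a7, a monocarboxylate transporter of the cell membrane (log2 -1.40), and Pdk4, one of the inhibiting kinases (-1.39), fell most. Further glycolytic isoenzymes gave 2 higher and 2 lower of 12 tested. Hkdc1, a hexokinase-like gene, rose (log2 0.82, edgeR adjusted p = 0.0044). Eno1, the main enolase, was not called (log2 -0.27, edgeR adjusted p = 0.074). Of 8 pentose phosphate genes 1 rose and 1 fell, and of 10 regulators Myc rose (log2 1.17) and 6 fell, including Hnf4a (-1.003), which drives proximal tubule genes. Hif1a, the hypoxia factor that acts on many glycolytic genes, was at a log2 difference of -0.01 (SE 0.09). Its transcript level does not measure its protein.

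Between the cystic groups 3 of the 58 were called, beside 2.23% of all genes: Slc2a4 (log2 0.52, edgeR adjusted p = 0.031) and Slc16a7 (0.51, adjusted p = 0.030) were higher with the deletion, and Txnip, which holds back glucose uptake, was lower (-0.41, adjusted p = 0.040).

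The main genes lie in the GRCm38 build as follows. Pck1 (ENSMUSG00000027513) is on the forward strand at chr2:173153048-173159273, G6pc (ENSMUSG00000078650) on the forward strand at chr11:101367561-101377903, and Pcx (ENSMUSG00000024892) on the forward strand at chr19:4510472-4621752. Fbp2 (chr13:62836877-62858422) and Fbp1 (chr13:62864753-62888282) are neighbours on the reverse strand. Hk3 (chr13:55005985-55021385, reverse strand) shares 0.92% of its exonic bases with another gene. In all, 14 members share exonic bases with another annotated gene, the largest shares being those of Pklr (21.97%), Pfkfb2 (19.5%), Pkm (15.3%), Gpi1 (11.5%) and Pfkm (10.7%), and their counts are less certain for that reason. The same caution holds for Slc5a2 (20.6%) and Txnip (19.4%), which had the largest shares among the further pathway genes named above. Both share these bases with a gene on the opposite strand. Aldoa has a second entry (ENSMUSG00000114515) with 2 to 44 reads per mouse, which was left out.

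Glycolytic genes are known for hypoxia response elements. A form of their core, ACGTG, was searched on both strands in the RefSeq promoters (GRCm38.p6), each 300 bases from 250 before the start. Other forms of the core were not searched. ACGTG was held by 23 of 51 promoters of the 34 members (45.1%) and by 6447 of 32851 promoters in all (19.6%). By gene, 19 of 34 members held it in at least 1 promoter (55.9%), against 21.8% of 27025 genes. Members and all genes were not matched for base composition or for promoters per gene, and the difference was not tested. The same Aldoa site lies in 2 of its promoters and counts in both. It was held by 4 of the 6 members that rose, 7 of the 13 that fell and 8 of the 15 not called between cystic and noncystic Pkd2 +/+ kidneys. The palindrome cacgtg counts on both strands.

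Windows around the core are shown for called members that went in both directions, and for Ldha, which was not called. Each is written 5′ to 3′ on the gene's strand, with ACGTG or its reverse complement in capitals. A match of letters shows no binding. Slc2a1 (chr4:119108699-119108723, forward strand), Slc16a3 (chr11:120949043-120949067, forward) and Hk3 (chr13:55021527-55021551, reverse) rose. Slc16a1 (chr3:104638455-104638479, forward), Khk (chr5:30921479-30921503, forward) and Pgk1 (chrX:106186940-106186964, forward) fell. The window of Ldha is at chr7:46845747-46845771 on the forward strand. Pck1, G6pc and Fbp1 held no match in these windows.
Slc2a1: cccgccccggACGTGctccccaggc
Slc16a3: tgcgcgggggACGTGccgcgcgacg
Hk3: tacattttgaCACGTtgcctagttc
Slc16a1: gcgccgggtcACGTGgcgggaaggg
Khk: gttccccgtcACGTGacaccgttaa
Pgk1: gtcgtgcaggACGTGacaaatggaa
Ldha: cccagcctacACGTGggttcccgca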

How the data were processed

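RNA-seq was made from whole kidneys of 12 mice. Per the labels and the methods, the authors trimmed reads with Trim Galore 0.6.3, aligned them to GRCm38 with STAR 2.5.3a and counted reads per gene with Ensembl gene models. The deposited values are raw whole-number counts per gene, and the strand setting of the counting is not given in the sources used here. Columns were matched to mice by the sample descriptions. GENCODE M21 gave coordinates and exons and matched 99.77% of gene identifiers, and 343 genes without a name held 0.0225% of reads.

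Genes with an average log2 CPM of at least -3 (prior count 2) were kept, and edgeR 4.0.16 in R 4.3.3 fitted its quasi-likelihood model with TMM factors and 1 mean per group over 12 mice (8 residual degrees of freedom). P-values were adjusted by Benjamini-Hochberg over all 24642 genes, with a threshold of 0.05. CPM uses TMM-scaled library sizes, and per-mouse values are listed in the order of mice 19 to 30. The labels do not say whether mice shared a litter or day, so the p-values measure the spread between these mice. On simulated data with 200 genes changed between the cystic and noncystic Pkd2 +/+ groups, in 5 simulations over 24642 genes, 81.6% of 2-fold and 97.8% of 4-fold changes were recovered and 7.03% of calls were false. The changed genes were drawn from the better expressed ones, with as many raised as lowered. In the real comparison 7665 genes were called, so these rates do not test its scaling.

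Alternatives were limma-trend (limma 3.58.1, prior count 3), DESeq2 1.42.0, library totals, DESeq2 size factors, no filter, filterByExpr, only the compared groups, Xist as a covariate and each mouse left out. Genes named are all 34 members by role, with up to 12 further pathway genes that were called and changed most and the isoenzymes of members. Hif1a, Hkdc1, Hnf4a and Txnip, the isoenzyme pairs and the ratios to proximal tubule markers were chosen after their values were seen. The members and lists were chosen with earlier results of these data known. Some further pathway genes are not reported here.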

Additional observations from a re-analysis of the deposited data

How the results depend on the processing

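The counts of members called between cystic and noncystic kidneys stayed within 1.5 times of the reported ones under each alternative run, at 16 to 22 for Pkd2 +/+ (16 to 19 with 1 mouse left out) and 13 to 21 for Pkd2 Δ17/Δ17 (13 to 16). Calls over all genes ran from 6479 to 8829 for Pkd2 +/+, against 7665 in the main fit. For Pkd2 Δ17/Δ17 they ran from 4425 to 7134, against 5679. Between the cystic groups the count of 0 moved to 3 with DESeq2, 9 with no filter on low counts and 0 to 4 with 1 mouse left out, while calls over all genes went from 549 to 1090, 1639 and 118 to 856. With no filter it moved to 1 in noncystic kidneys (all genes 1 to 124) and to 4 for the interaction (all genes 3 to 566). The cause was not tested. All other alternatives left those counts at 0.

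Signs of small, uncalled differences turned. In the Pkd2 +/+ comparison of cystic with noncystic mice, scaling by library totals gave fold changes (log2, limma-trend and then edgeR) of 0.077 and 0.078 for Gpi1, 0.13 and 0.14 for Pfkfb2, 0.0069 and 0.00031 for Aldoa, 0.018 and 0.017 for Gapdh and 0.14 and 0.14 for Pgam1. With 1 mouse left out, the ranges were -0.029 to 0.18 for Pfkl, -0.23 to 0.11 for Pfkfb2, -0.11 to 0.13 for Pfkfb4, -0.12 to 0.042 for Pgam1, -0.037 to 0.27 for Pkm and -0.010 to 0.17 for Ldha. In Pkd2 Δ17/Δ17 kidneys Slc16a3 was at 0.19 and 0.11 with library totals and -0.30 to 0.33 with 1 mouse left out. Library totals moved the summed CPM of 5 of 56 pairs of marker list and group by more than 1 SD. The labels' mouse numbers are not shared between groups. No paired analysis was possible because the groups share no replicate numbers. Hk3, with 10 reads at its lowest, is the member whose depth limits most.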
